A study of Mus musculus with 6 samples.

Results

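Heat shock proteins and their Dnaj cochaperones were followed as a gene family in fetal livers with and without Klf1. A gene was a member if its symbol on the array platform began with Hspa, Hspb, Hspd, Hspe, Hsph, Hsp90, Dnaja, Dnajb or Dnajc, and it was represented by the probe set of that gene alone with the highest mean intensity. This gave 72 members of 19937 genes with a probe set of their own, 27 with a heat shock protein symbol and 45 with a Dnaj symbol. RNA came from whole livers of FVB/NJ mouse embryos at embryonic day 13.5, dissociated to single cells before extraction, from timed matings of Klf1 heterozygous animals. Livers of 3 Klf1-/- embryos (knockout, KO) were compared with livers of 3 wildtype embryos (WT), each on 1 Affymetrix mouse gene array. Whether embryos shared a litter is not given in the sources used here, so the p-values measure the spread between these 6 arrays. Levels are log2 of the intensity after robust multi-array averaging (RMA), a change is KO minus WT on that scale, and a member was called where the moderated test of limma gave a Benjamini-Hochberg adjusted p under 0.05 over all genes.

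Hsp70 proteins bind exposed stretches of unfolded protein and release them in a cycle driven by ATP. Dnaj proteins carry a J domain that hands the client over and stimulates ATP hydrolysis, and exchange factors such as the Hsp110 proteins remove the ADP. Hsp90 acts later on client kinases and receptors, the Hspd1 and Hspe1 chaperonin folds proteins inside mitochondria, and small heat shock proteins hold unfolding proteins in a soluble state. Red cell precursors make very large amounts of hemoglobin, and Hsp70 is known from human erythroid cells to protect the transcription factor GATA1 from cleavage. Klf1, an erythroid Krüppel-like factor, binds CACCC-type sequences in the promoters of red cell genes.

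Most of the family differed little between the genotypes, while a few members moved by more than 1.5-fold. Hspa1a and Hspa2, both cytosolic Hsp70 proteins, were 2.14-fold and 1.79-fold as high in Klf1-/- livers as in wildtype livers. Dnaja4, Hspa12b and Hspa4l stood at 0.368, 0.397 and 0.548 of the wildtype level. In all, 15 of 72 members were called (20.8%), where 19.1% of all genes were called. Of these, 6 members were higher in KO livers (8.33%, against 10.8% of all genes) and 9 were lower (12.5%, against 8.26% of all genes). A call together with a change of at least 1.5-fold was reached by 5 members (6.94%), against 5.21% of all genes. Of the 5, 2 were higher, where 2.75% of all genes were, and 3 were lower, where 2.46% were. The family as a whole therefore had a share of calls near that of the array, with a median change of 0.0054 against -0.0243 over all genes and a median absolute change of 0.13 against 0.14. Centring the arrays on their 75th percentile turned the members' median to -0.06 and that of all genes to -0.09. It made 61% of the calls over all genes downward ones, against 43.2% as measured.

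The 57 members that were not called had narrow intervals. For all 57 the 95% interval of the change lay within 1.5-fold in either direction, and the interval reaching farthest from 0 ended at 0.56. The groups did not overlap in 28 of the 72 members (38.9%), where 37.5% of all genes showed no overlap, and all 15 called members were among the 28. Another 8 of the 72 members had an unadjusted p under 0.05 without being called, where 2827 of 19937 genes did. The 8 had positive changes: Dnajc7, Dnajc1, Dnaja1, Dnajc30, Dnajc16, Dnajc15, Dnajc28 and Dnajc18. Their changes ran from 0.18 for Dnajc7 to 0.30 for Dnajc18. The groups of Dnajc28 overlapped, and a Dnaja1 set shared with Mir207 changed by -0.32. With called members included, 14 had an unadjusted limma p under 0.05 with a positive change and 9 with a negative one. Over all genes the counts were 3358 and 3278.

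**Figure D1:**
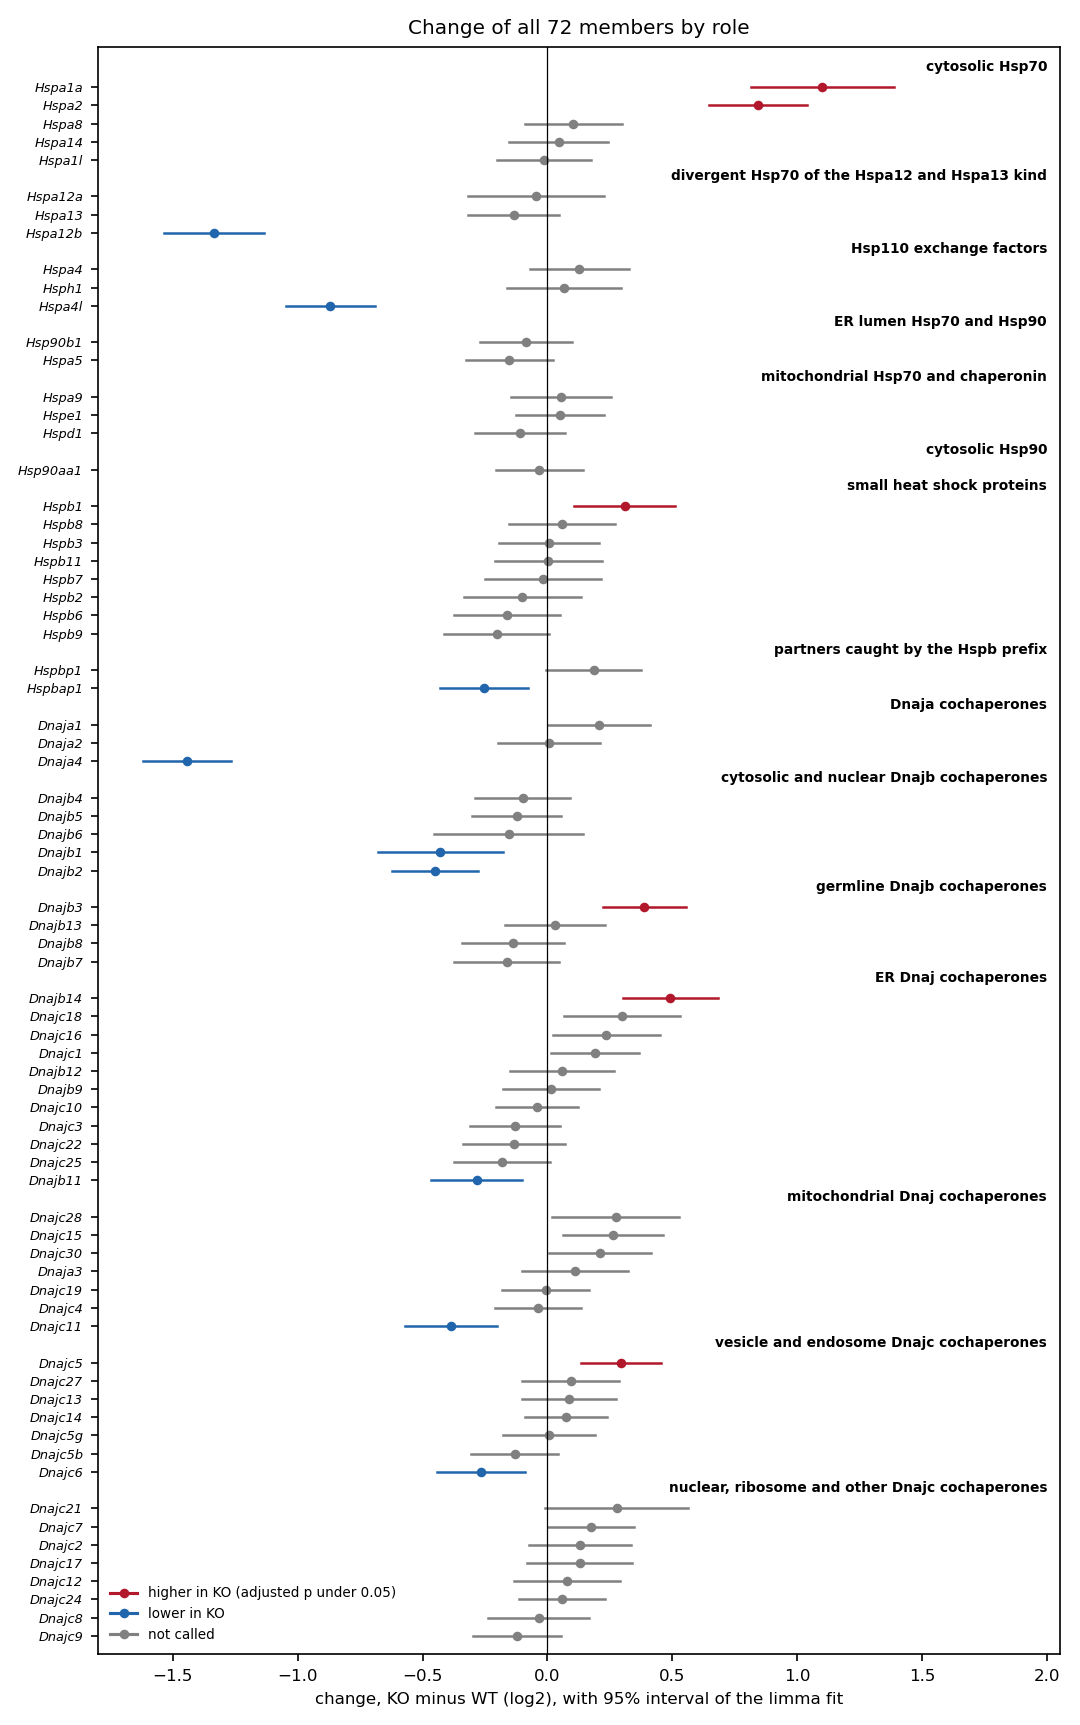
Change of each of the 72 members, KO minus WT (log2), on the horizontal axis, with members grouped by role down the page and bars for the 95% interval of the limma fit (3 arrays per group). Hspa1a (1.10) and Hspa2 (0.84) lie far to the right, Dnaja4 (-1.44), Hspa12b (-1.33) and Hspa4l (-0.87) far to the left, and the 57 grey members lie close to 0.

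Klf1 was lower in the Klf1-/- livers, and the makeup of marker genes differed between the groups. Klf1 itself measured 9.05, 9.38 and 9.12 in KO livers, against 10.59, 10.58 and 10.76 in WT livers; where its probes lie relative to the deleted part is not given in the sources used here. The summed intensity of 5 erythroid markers ran from 17965 to 19969 in KO livers and from 29363 to 32873 in WT livers, with 4 of 5 lower and Hbb-bh1 higher. Megakaryocyte markers summed to 9639 to 12803 in KO livers and 6756 to 7216 in WT livers, with 4 of 4 measured higher. Granulocyte markers summed to 4088 to 4745 in KO livers and 3022 to 3189 in WT livers, with 3 of 6 higher. Stem and progenitor markers summed to 3148 to 3517 in KO livers and 2355 to 2456 in WT livers, also with 3 of 6 higher. In that list Slamf1 changed most (1.32), followed by Meis1 (0.46) and Cd34 (0.36). Kit (-0.16), Mecom (-0.12) and Hlf (-0.01) had negative changes and were not called. Of the granulocyte markers 2 were higher after quantile normalization or centring on housekeeping genes. The latter also left 2 stem and progenitor markers higher. The hepatoblast sums overlapped, at 39353 to 42850 in KO livers and 41135 to 48092 in WT livers, with Apoa1 lower. The Apoa1 call was lost after quantile normalization and with centring on housekeeping genes. Macrophage sums overlapped too, at 2587 to 3144 in KO livers and 2877 to 3340 in WT livers, but 3 of 6 macrophage markers, Adgre1 (-0.66), Cd68 (-0.36) and Cd5l (-0.90), were lower, and 3 of 6 were lower under each scaling. Stellate and mesenchymal markers summed to 2067 to 2430 in KO livers and 2308 to 3738 in WT livers, with none called and negative changes in 6 of 6. Fewer cells of a type and less RNA per cell cannot be told apart in whole livers, and the part of these marker shifts in the members' changes was not tested.

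Among the cytosolic Hsp70 proteins, 2 of 5 measured members were higher in KO livers (40%, against 10.8% of all genes). None was lower, where 8.26% of all genes were. Hspa1a, the classic stress-inducible Hsp70, measured 9.12, 8.68 and 9.22 in the 3 KO livers, against 8.01, 7.89 and 7.81 in the 3 WT livers. Every KO array lay above every WT array, with the second KO array lowest of its group. The means were 9.01 ± 0.28 in KO livers and 7.91 ± 0.10 in WT livers (SD, n = 3 each). The change of 1.10 ± 0.13 (SE) had an adjusted p of 0.000162, and it ranged from 0.99 to 1.26 when each array was left out in turn. Hspa1b, the twin gene beside it, had no probe set of its own, but a set shared by Hspa1a and Hspa1b measured 9.83, 9.08 and 9.89 in KO livers, against 8.61, 8.49 and 8.61 in WT livers. That set rose by 1.03 ± 0.21 and was called in a fit over all probe sets (adjusted p = 0.025). The same KO array was again the lowest of its group, and signal of the twin genes on the shared probes cannot be told apart.

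Hspa2, an Hsp70 best known from the testis, where it is needed for sperm development, measured 7.51, 7.57 and 7.56 in KO livers, against 6.74, 6.82 and 6.54 in WT livers. The KO arrays were tightly grouped and well clear of the WT arrays. The rise was 0.84 ± 0.09 with an adjusted p of 7.05e-05. Hspa8, the constitutive Hsc70 and the member with the highest intensity, measured 13.62, 13.76 and 13.79 in KO livers, against 13.72, 13.64 and 13.50 in WT livers. Its groups overlapped, and the change of 0.10 had a 95% interval of -0.09 to 0.30. Hspa14, which works at the ribosome, changed by 0.04 and Hspa1l, the testis gene that neighbours Hspa1a, by -0.02, neither called. The rise within this class was thus seen in Hspa1a and Hspa2, with no call in the other 3 measured members.

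Promoter sequence is shown for the 5 members that moved most and for Hspa1b, because Klf1 binds CACCC-type sequence and heat shock factor binds inverted GAA repeats. Each stretch is the 250 bases before the RefSeq start on GRCm38.p6, read 5′ to 3′ on the gene's strand. Capitals mark matches on either strand to CCNCNCCC, a loose CACCC-type pattern, or to GAANNTTC, a pair of heat shock units; overlapping matches run together. The windows are chr17:34972157-34972406 (minus strand) for Hspa1a, chr17:34959239-34959488 (minus) for Hspa1b, chr12:76404120-76404369 (plus) for Hspa2, chr9:54699033-54699282 (plus) for Dnaja4, chr2:131127162-131127411 (plus) for Hspa12b and chr3:40745363-40745612 (plus) for Hspa4l.
Hspa1a: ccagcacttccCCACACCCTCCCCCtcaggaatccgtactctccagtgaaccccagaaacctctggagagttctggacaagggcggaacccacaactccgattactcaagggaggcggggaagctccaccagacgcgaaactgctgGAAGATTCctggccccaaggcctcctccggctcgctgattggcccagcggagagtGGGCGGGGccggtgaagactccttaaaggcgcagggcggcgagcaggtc
Hspa1b: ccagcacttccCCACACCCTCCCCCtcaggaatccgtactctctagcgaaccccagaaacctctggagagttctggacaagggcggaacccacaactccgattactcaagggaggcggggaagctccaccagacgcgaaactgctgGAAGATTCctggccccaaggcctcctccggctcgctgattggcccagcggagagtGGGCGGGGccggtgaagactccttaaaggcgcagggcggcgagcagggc
Hspa2: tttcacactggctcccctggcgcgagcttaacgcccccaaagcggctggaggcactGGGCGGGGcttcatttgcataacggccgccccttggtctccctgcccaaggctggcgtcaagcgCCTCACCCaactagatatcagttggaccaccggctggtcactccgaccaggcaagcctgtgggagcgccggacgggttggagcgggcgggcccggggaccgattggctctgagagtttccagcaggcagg
Dnaja4: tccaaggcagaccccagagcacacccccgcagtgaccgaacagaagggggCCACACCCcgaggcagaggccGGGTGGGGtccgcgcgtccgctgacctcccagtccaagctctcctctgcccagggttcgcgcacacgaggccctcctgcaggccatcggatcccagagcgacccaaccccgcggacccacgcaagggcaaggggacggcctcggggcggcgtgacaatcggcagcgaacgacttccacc
Hspa12b: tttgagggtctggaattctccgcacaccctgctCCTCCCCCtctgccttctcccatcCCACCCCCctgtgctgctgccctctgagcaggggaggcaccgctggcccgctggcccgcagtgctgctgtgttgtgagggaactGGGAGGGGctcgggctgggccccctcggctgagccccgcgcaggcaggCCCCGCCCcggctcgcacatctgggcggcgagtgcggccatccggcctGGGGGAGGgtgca
Hspa4l: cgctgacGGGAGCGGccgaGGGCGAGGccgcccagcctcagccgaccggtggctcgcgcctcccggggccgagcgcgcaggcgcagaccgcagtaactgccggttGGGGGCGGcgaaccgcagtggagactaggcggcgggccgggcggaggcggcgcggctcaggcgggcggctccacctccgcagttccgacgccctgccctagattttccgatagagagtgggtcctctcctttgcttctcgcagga
The Hspa1a and Hspa1b windows were the same at 247 of 250 bases (98.8%), and both hold GAANNTTC along with CCNCNCCC. The Hspa2, Hspa12b and Hspa4l windows hold matches to CCNCNCCC and none to GAANNTTC. Dnaja4 has 2 annotated starts; the window shown is of the upstream one, while the window of the other start holds GAANNTTC at 90 and 52 bases before it.

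Across the family, 59 of 72 members had a promoter in the RefSeq table, with 76 windows in all. GAANNTTC was found in 11 of 76 windows (14.5%), where 2199 of 32851 windows of all genes (6.69%) held it. CCNCNCCC was found in 45 of 76 windows (59.2%), against 15089 of 32851 (45.9%). Some windows overlap, so the same site can be counted more than once. This was so for GAANNTTC in the windows of Dnajb6 and in those of Hspd1 and Hspe1. Among members higher in KO livers, the window of Hspa1a held both patterns, those of Hspa2 and Dnajb14 held CCNCNCCC alone, and that of Dnajb3 held neither. The Hspb1 window held both, but the probe sets of Hspb1 disagree in sign, as described with the small heat shock proteins. Among members lower in KO livers, 8 of 12 windows held CCNCNCCC and 1 of 12, at the downstream start of Dnaja4, held GAANNTTC. A match describes the letters of the window and is not evidence of a bound factor.

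**Figure D2:**
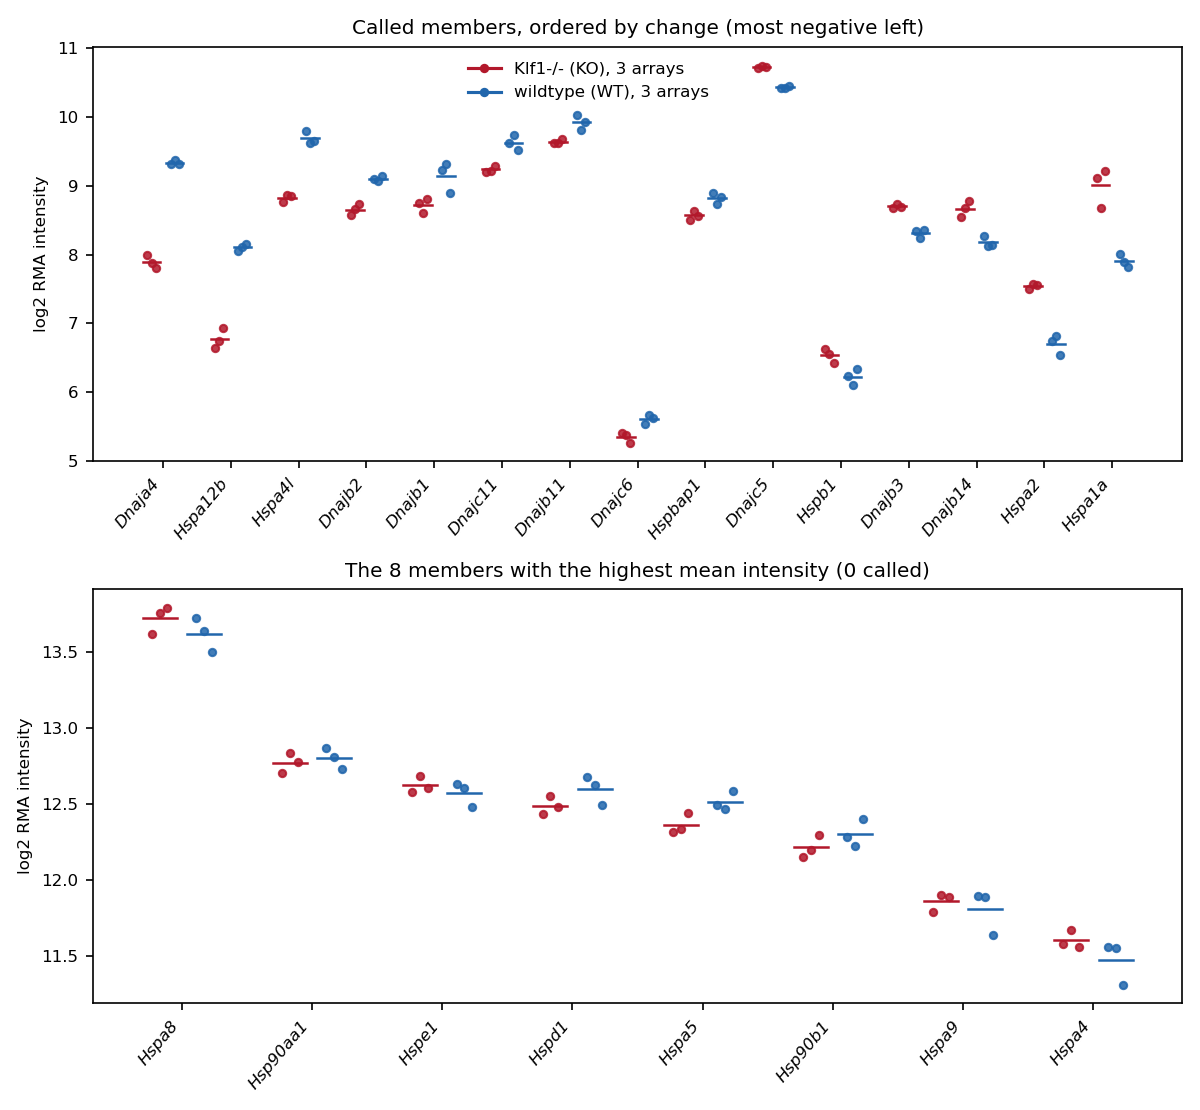
Log2 RMA intensity (vertical axis) of the 15 called members, upper panel, and of the 8 members with the highest mean intensity, lower panel; points are arrays, KO left of WT, and lines are group means (3 arrays each). In the upper panel no KO array overlaps a WT array, while in the lower panel the groups overlap in all but Hspa5.

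The largest fall among the Hsp70-related members was that of Hspa12b, a divergent Hsp70 known from endothelial cells, where it takes part in vessel growth. It measured 6.65, 6.75 and 6.94 in KO livers, against 8.06, 8.12 and 8.16 in WT livers. All KO arrays lay more than a full log2 unit below the lowest WT array. The means were 6.78 ± 0.15 in KO livers and 8.11 ± 0.05 in WT livers (SD, n = 3 each), a change of -1.33 ± 0.09 with an adjusted p of 3.02e-06. Endothelial markers did not move in 1 direction. Their summed intensity was 3505 to 4172 in KO livers and 3277 to 4658 in WT livers, and 1 of 6, Pecam1, was called higher (0.40), a call lost under each of the 3 other scalings. Lyve1 changed by -0.48 with all KO arrays below all WT arrays and was not called (adjusted p = 0.0672), and the part of these markers in the fall of Hspa12b was not tested. Each of the 6 lay at or above 8.03 log2 units on every array. The related Hspa12a changed by -0.05 and Hspa13, which resides in the endoplasmic reticulum (ER), by -0.14, neither called.

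The Hsp110 exchange factors, which reset Hsp70 by removing its ADP, split as well. Hspa4l measured 8.76, 8.87 and 8.85 in KO livers, against 9.80, 9.63 and 9.66 in WT livers. The groups stood far apart, and the fall of -0.87 ± 0.08 had an adjusted p of 2.80e-05. Hspa4, its close relative, measured 11.58, 11.67 and 11.56 in KO livers, against 11.56, 11.55 and 11.31 in WT livers. These arrays overlapped, with the third WT array lowest, and the change was 0.13 (interval -0.07 to 0.33). Hsph1, the stress-inducible Hsp110, changed by 0.07 with overlapping groups. Thus 1 of 3 exchange factors of this type was lower in KO livers (33.3%, against 8.26% of all genes).

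The chaperones of the ER lumen and of the mitochondrial matrix, with Hsp90, gave no call, where 19.1% of all genes were called. Hspa5 (BiP), the ER Hsp70, measured 12.31, 12.34 and 12.44 in KO livers, against 12.49, 12.47 and 12.59 in WT livers. All KO arrays were below all WT arrays, but the change of -0.15 (interval -0.33 to 0.02) had an adjusted p of 0.203. Hsp90b1, the ER Hsp90, measured 12.15, 12.20 and 12.30 in KO livers, against 12.28, 12.22 and 12.40 in WT livers. Its groups overlapped, with a change of -0.09 (interval -0.27 to 0.10). Hsp90aa1, the inducible cytosolic Hsp90, measured 12.70, 12.83 and 12.78 in KO livers, against 12.87, 12.81 and 12.73 in WT livers, a change of -0.03 (interval -0.21 to 0.14) between overlapping groups. Hsp90ab1, its constitutive partner, was not analysed here.

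In mitochondria, Hspd1 (Hsp60) measured 12.43, 12.55 and 12.48 in KO livers, against 12.68, 12.63 and 12.49 in WT livers. The third WT array fell among the KO arrays, and the change was -0.11 (interval -0.29 to 0.07). Hspe1 (Hsp10), the lid of the same chaperonin, measured 12.58, 12.69 and 12.61 in KO livers, against 12.63, 12.61 and 12.48 in WT livers, with a change of 0.05 (interval -0.13 to 0.23). Hspa9 (mortalin), the mitochondrial Hsp70 that also serves iron-sulfur cluster assembly, measured 11.79, 11.90 and 11.89 in KO livers, against 11.90, 11.89 and 11.64 in WT livers. Its groups overlapped and it changed by 0.05 (interval -0.15 to 0.26). The gene table lists other genes named as copies of Hspe1 (7), Hspd1 (5) and Hspa9 (1), and whether their transcripts reach these probes is not known here.

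Of 8 small heat shock proteins, 1 was called (12.5%, against 19.1% of all genes). Hspb1 (Hsp25), which binds unfolding proteins and actin, measured 6.63, 6.55 and 6.42 in KO livers, against 6.23, 6.11 and 6.34 in WT livers. The KO arrays lay above the WT arrays by a small margin, a change of 0.31 ± 0.09 with an adjusted p of 0.0375. A second Hspb1 probe set went the other way, at 5.88, 5.77 and 5.95 in KO livers against 5.99, 6.09 and 6.37 in WT livers, a change of -0.28. Neither set was called in the fit over all probe sets, and the mean of the 2 changed by 0.0131 (adjusted p = 0.934), so no direction is given for Hspb1. The other 7 ran from -0.20 for Hspb9 to 0.06 for Hspb8 and included Hspb11, which works in cilia.

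The Hspb prefix also takes in partner proteins that are not small heat shock proteins. Hspbap1, a protein that binds Hspb1, measured 8.51, 8.64 and 8.57 in KO livers, against 8.89, 8.74 and 8.84 in WT livers. Its groups did not overlap, and the change of -0.25 ± 0.08 was just past the threshold (adjusted p = 0.0486); it was not called when any array was left out. Hspbp1, an exchange factor of Hsp70, changed by 0.18 and was not called.

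**Figure D3:**
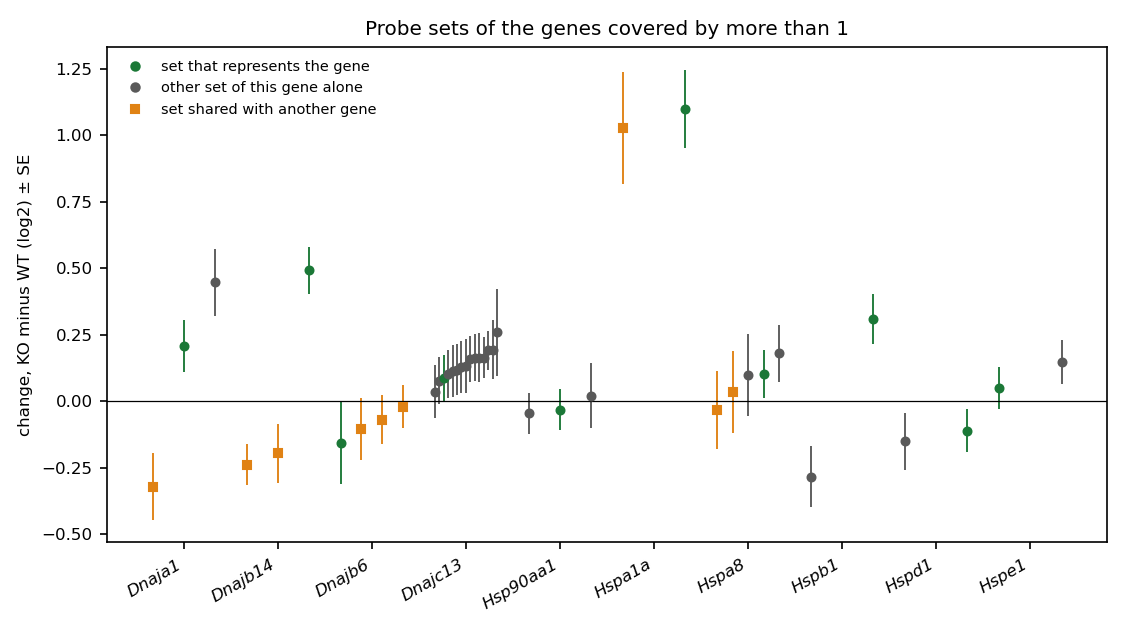
Change, KO minus WT (log2, vertical axis), of every probe set of the 10 genes covered by more than 1 set, with bars for the standard error (3 arrays per group); squares are sets shared with another gene. Both sets that contain Hspa1a lie near 1, the 15 Dnajc13 sets all lie between 0.04 and 0.26, and the Hspb1 sets lie on either side of 0.

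Dnaja proteins are the general J-domain partners of cytosolic Hsp70. Dnaja4 gave the largest change of all 72 members, with 7.99, 7.88 and 7.81 in KO livers, against 9.31, 9.38 and 9.32 in WT livers. Both groups were tight and lay more than a log2 unit apart. The means were 7.89 ± 0.09 in KO livers and 9.34 ± 0.04 in WT livers (SD, n = 3 each), a change of -1.44 ± 0.08 with an adjusted p of 6.88e-07. It stayed between -1.49 and -1.40 with each array left out. Dnaja1 changed by 0.21 and Dnaja2 by 0.01, neither called. Dnaja1 had another set of its own at 0.45 and a set shared with Mir207 at -0.32, so its probe sets disagreed in sign.

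The 5 cytosolic and nuclear Dnajb proteins all had negative changes, where 10916 of 19937 genes did, and the 5 stayed negative under each other scaling tried. Of the 5, 2 were called lower (40%), where 8.26% of all genes were. Dnajb2, which brings ubiquitin-tagged clients toward the proteasome, measured 8.58, 8.66 and 8.73 in KO livers, against 9.10, 9.07 and 9.14 in WT livers. The groups were clearly apart, with a change of -0.45 ± 0.08 and an adjusted p of 0.00232. Dnajb1 (Hsp40), the heat-inducible partner of Hspa1a, measured 8.75, 8.60 and 8.81 in KO livers, against 9.23, 9.31 and 8.90 in WT livers. The third WT array lay close to the KO arrays. The change was -0.43 ± 0.11 with an adjusted p of 0.0227, and the call was lost without the second KO array or without the first or second WT array (adjusted p up to 0.0884). Dnajb6, Dnajb5 and Dnajb4 changed by -0.16, -0.12 and -0.10 and were not called.

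Among the 4 Dnajb genes known mainly from the germline, Dnajb3 was called (25%, against 19.1% of all genes). It measured 8.67, 8.73 and 8.69 in KO livers, against 8.34, 8.25 and 8.35 in WT livers. The groups were tight and did not overlap, with a change of 0.39 ± 0.08 and an adjusted p of 0.00463. The Dnajb3 gene lies inside the span of 8 Ugt1a genes on chromosome 1, and a probe set shared by Ugt1a genes changed by 0.05 ± 0.11, not called. Dnajb7, Dnajb8 and Dnajb13 changed by -0.16, -0.14 and 0.03.

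The 11 members listed as Dnaj proteins of the ER did not move together, with 1 higher and 1 lower (18.2% called, against 19.1% of all genes). Dnajb14, a J protein anchored in the ER membrane, measured 8.55, 8.68 and 8.77 in KO livers, against 8.27, 8.13 and 8.14 in WT livers. The groups did not overlap, and the change of 0.49 ± 0.09 had an adjusted p of 0.00246. Its other 2 sets, shared with Pin4, changed by -0.24 and -0.19 and were not called. Dnajb11 (ERdj3), a soluble partner of Hspa5, measured 9.63, 9.62 and 9.68 in KO livers, against 10.03, 9.81 and 9.93 in WT livers. The KO arrays were nearly alike and below each WT array, a change of -0.28 ± 0.08 (adjusted p = 0.0364) that kept its call in 1 of the 6 fits with an array left out. Dnajc3, which restrains eIF2 alpha kinases, changed by -0.13, Dnajc10, a disulfide reductase, by -0.04 and Dnajb9, an ER stress target, by 0.01. Dnajc18, Dnajc16 and Dnajc1 had changes of 0.30, 0.24 and 0.19 with no overlap between groups, and none was called.

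Of 7 mitochondrial Dnaj proteins, 1 was lower (14.3%, against 8.26% of all genes). Dnajc11, an outer membrane protein tied to cristae structure, measured 9.21, 9.22 and 9.29 in KO livers, against 9.63, 9.73 and 9.52 in WT livers. The KO arrays were tightly grouped below all WT arrays. The change was -0.39 ± 0.08 with an adjusted p of 0.00814, and the call held with each array left out. Dnajc15 and Dnajc19, J proteins of the inner membrane import motor, changed by 0.26 (adjusted p = 0.0701) and -0.01. Dnaja3, the main matrix partner of Hspa9, changed by 0.11, and Dnajc28 and Dnajc30 by 0.27 and 0.21, none called.

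The 7 members listed as vesicle and endosome Dnajc proteins gave 1 call in each direction (28.6% called, against 19.1% of all genes). Dnajc5, the cysteine string protein of secretory vesicles, measured 10.71, 10.75 and 10.72 in KO livers, against 10.42, 10.42 and 10.46 in WT livers. The arrays of each group lay close together and the groups did not overlap. The change was 0.29 ± 0.07 with an adjusted p of 0.0167, and the call was lost without KO array 2 or 3 or without WT array 2 (adjusted p up to 0.0668). Centring on housekeeping genes also ended the Dnajc5 call. Dnajc6 (auxilin), which strips clathrin coats in neurons, measured 5.40, 5.37 and 5.27 in KO livers, against 5.53, 5.67 and 5.63 in WT livers. It lay below the median of all genes on every array. The groups did not overlap, and the change of -0.26 ± 0.08 (adjusted p = 0.0413) kept its call in 1 of 6 fits with an array left out. Quantile normalization also ended the Dnajc6 call. Dnajc13, an endosome protein covered by 15 probe sets, had positive changes in all 15, from 0.04 to 0.26, with none called.

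None of the 8 nuclear, ribosomal and other Dnajc proteins was called, where 19.1% of all genes were. Of the 8, Dnajc7 alone had an unadjusted p under 0.05 in limma. The changes of the 8 ran from -0.12 for Dnajc9, a histone chaperone, to 0.28 for Dnajc21, which works in ribosome biogenesis. Dnajc2, the ribosome-bound partner of Hspa14, changed by 0.13, and Dnajc7, which passes clients between Hsp70 and Hsp90, by 0.18. Dnajc24, an enzyme cofactor of diphthamide synthesis, changed by 0.06.

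Read by the stress that is known to induce them, the members did not rise together. Of 12 measured members known to be induced by heat shock, 2 were higher and 3 lower, with 7 not called. Higher were Hspa1a and, by 1 of its 2 probe sets, Hspb1, and lower were Dnaja4, Hspa4l and Dnajb1. That was 41.7% called, against 19.1% of all genes, and 25% called with at least 1.5-fold, against 5.21%. The median change of 0.05 turned to -0.01 when arrays were centred on the 75th percentile, where that of all genes was -0.09. Of 7 members induced by ER stress, Dnajb11 was lower (14.3% called, against 19.1% of all genes) and none was higher. In 6 of the 7 the change was negative, where 10916 of 19937 genes had a negative change. The median was -0.13, against -0.0243 over all genes. For the 6 members of this list that were not called, the interval of the change included 0. Since the livers were dissociated before RNA was extracted, immediate early genes were set beside these values. Their summed intensity over 11 genes was 2072 to 2079 in KO livers and 3930 to 4320 in WT livers, with Jun and Zfp36 higher and Dusp1, Ier3 and Btg2 lower. Dusp1 (-2.91) and Btg2 (-0.98) carried that gap: the other 9 genes, set apart after their values were seen, summed to 1130 to 1171 in KO livers and 1021 to 1095 in WT livers. The part of these differences in the members' changes was not tested.

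**Figure D4:**
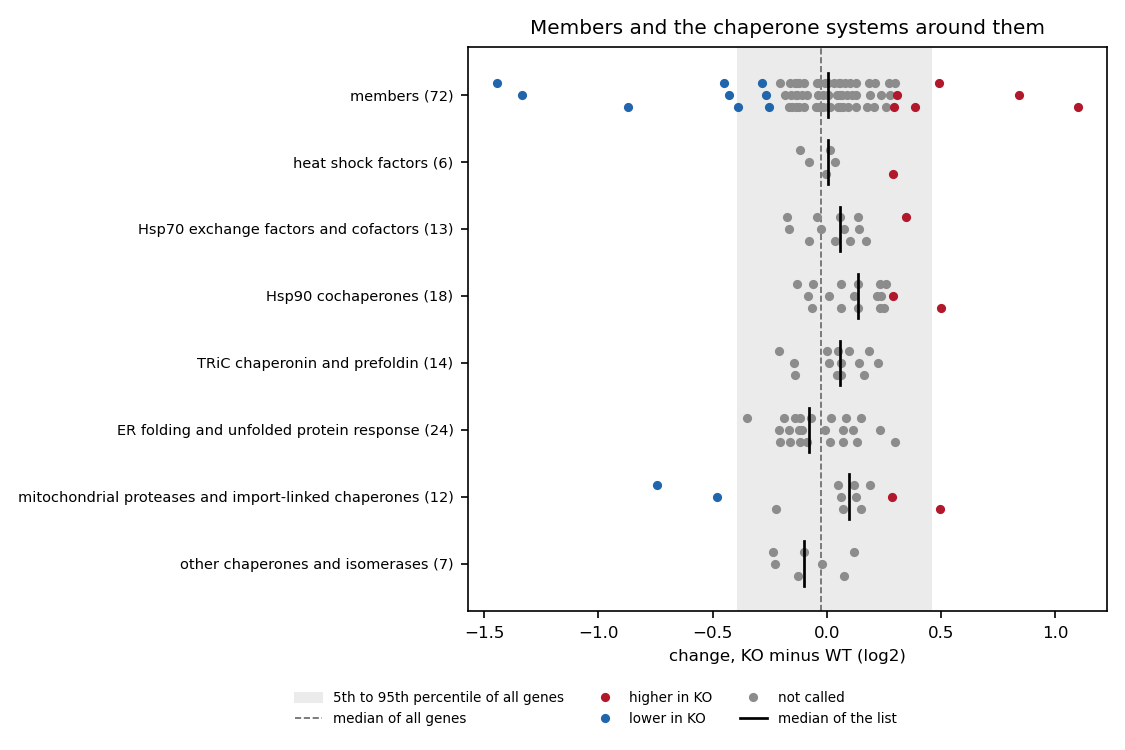
Change, KO minus WT (log2, horizontal axis), of the 72 members and of 7 lists of genes that work with them; each dot is a gene, red where higher and blue where lower in KO livers, black bars are list medians and the grey band is the 5th to 95th percentile of all genes (-0.39 to 0.46). Hscb (-0.74) and Htra2 (-0.48) are the 2 genes outside the members that were lower.

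Genes that control or assist the members were mostly not called, as were most genes of the array, of which 19.1% were called. Among 6 measured heat shock factors and their regulators, Hsbp1, which binds the trimer of heat shock factor, was higher, at 10.51, 10.58 and 10.64 in KO livers against 10.27, 10.33 and 10.26 in WT livers (change 0.29 ± 0.08, adjusted p = 0.0229). Hsf2 changed by 0.02, and Hsf1 was not analysed here. Among 13 Hsp70 exchange factors and cofactors, Bag3, a stress-inducible exchange factor that works with Hspb8, was higher, at 8.04, 8.10 and 8.08 in KO livers against 7.90, 7.69 and 7.60 in WT livers (change 0.35 ± 0.09, adjusted p = 0.0221). The Bag3 call was lost after quantile normalization (adjusted p = 0.068), and the Hsbp1 call with centring on the 75th percentile (adjusted p = 0.0523), a scaling under which 1 of the 13 cofactors was lower. Hsbp1 and Bag3 each had 3 KO arrays above all WT arrays.

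Of 18 genes listed as Hsp90 cochaperones, among them the mitochondrial Hsp90 Trap1, 2 were higher and none was lower (11.1% called). The median change of 0.14 stayed positive under each scaling tried. Sugt1, which links Hsp90 to kinetochore and immune receptor clients, measured 9.93, 10.02 and 9.89 in KO livers, against 9.63, 9.38 and 9.33 in WT livers (change 0.50 ± 0.09, adjusted p = 0.00367). Unc45a, a myosin chaperone, measured 8.47, 8.45 and 8.54 in KO livers, against 8.23, 8.15 and 8.21 in WT livers (change 0.29 ± 0.08, adjusted p = 0.0215). In both genes the groups did not overlap. Sugt1 kept its call under the 3 other scalings, while Unc45a lost it under all 3 (adjusted p from 0.0558 to 0.0705). After quantile normalization 3 of the 18 were higher, and with centring on the 75th percentile or on housekeeping genes 1 was. None of the 14 subunits of the TRiC chaperonin and prefoldin, which fold actin and tubulin, was called by limma, with 2 at an unadjusted p under 0.05; Pfdn1 had the smallest p, with a change of 0.22.

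None of 24 genes of ER folding and the unfolded protein response was called by limma, where 19.1% of all genes were. There were 4 at an unadjusted p under 0.05, and the median change was -0.08. Ern1 (IRE1 alpha), the ER stress sensor, came nearest with a change of -0.35 ± 0.12 (adjusted p = 0.0615), at 8.18, 8.19 and 8.24 in KO livers against 8.39, 8.41 and 8.85 in WT livers, where the third array stood above the others. Ern1 was called lower after quantile normalization (adjusted p = 0.0338) and with centring on the 75th percentile (adjusted p = 0.0433), which left 1 and 2 of the 24 genes lower. Of 12 genes listed as mitochondrial proteases and import-linked chaperones, among them the transcription factor Atf5, 2 were higher and 2 lower (33.3% called). With either the 75th percentile or the housekeeping genes as centre, 1 was higher and 3 were lower. Hscb, the J protein that delivers iron-sulfur clusters with Hspa9 and falls outside the symbol rule, measured 7.65, 7.68 and 7.72 in KO livers, against 8.43, 8.42 and 8.43 in WT livers. Both groups were very tight, and the fall of -0.74 ± 0.07 had an adjusted p of 4.03e-05. Htra2, a protease of the intermembrane space, fell as well (-0.48 ± 0.07, adjusted p = 0.00107), while Clpb, a mitochondrial disaggregase, rose by 0.50 ± 0.08 (adjusted p = 0.00115). Of 7 other chaperones and isomerases, none was called by limma and 2 had an unadjusted p under 0.05; Fkbp2 had the smallest p, with a change of -0.24 and an adjusted p of 0.0531. Fkbp2 was called lower under each of the 3 other scalings (adjusted p from 0.00871 to 0.0296), and with centring on the 75th percentile 2 of the 7 were.

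The calls differed in how firmly they stood. Of the 15 called members, 9 kept their call in all 16 other settings: Dnaja4, Hspa12b, Hspa4l, Dnajb2 and Dnajc11 on the lower side, and Hspa1a, Hspa2, Dnajb14 and Dnajb3 on the higher side. The other 6, Dnajb1, Dnajb11, Dnajc6, Hspbap1, Dnajc5 and Hspb1, lost it in at least 1 fit with an array left out. All of the 6 but Dnajc5 were also not called in the limma fit over all probe sets (adjusted p from 0.0782 to 0.0926). Across settings 6 further members were called at least once, all with positive changes: Dnajc15, Dnajc18, Dnaja1, Dnajc21, Dnajc28 and Dnajc16.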

How the data were processed

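RNA from whole fetal livers was measured on 6 one-colour arrays, 3 per genotype, each assigned to its group from its genotype label. The deposited values are linear probe set intensities. According to the submitters' processing notes, the authors used RMA and Affymetrix Power Tools 1.8.6; the genome build is not given in the sources. RMA equalises the arrays, so a change in total RNA cannot be seen. Array medians lay between 104.5 and 109.8. Depth does not apply to arrays; the number of arrays limits precision.

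Values were put on the log2 scale without filter. Of 34760 probe sets, 21640 had 1 gene, 1321 several and 11799 none named here; the brightest single-gene set represented a gene, which gave 19937 genes. The two-sided comparison of KO with WT used limma 3.58.1 (lmFit, then eBayes; R 4.3.3) with a genotype term, and p-values were adjusted over all genes by the Benjamini-Hochberg method. With 3 arrays a group, the smallest p of an exact permutation test is 0.1. The fit was tested on simulated data. The members, lists and alternatives were chosen with earlier results of these data known.

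All members could be named; values per array were given for called members and for the 8 brightest. Of each list of partner genes, up to 3 called genes, or otherwise the 1 gene of smallest p, were to be named, with Klf1 as check; genes named beyond that (Hsf2, markers and immediate early genes) were chosen after their values were seen. Promoters are RefSeq windows on GRCm38.p6 and all symbols were matched to that gene table, where 0 changed. Same-numbered arrays did not deviate together (correlations -0.156, -0.224 and 0.183) and each array has an embryo number of its own, so replicate numbers were not taken as pairs. Other settings were 3 scalings, 2 filters on dim genes, the mean of a gene's sets, 3 variance models, a replicate block, stricter thresholds and leaving out each array.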

Additional observations from a re-analysis of the deposited data

How the results depend on the processing

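Without moderation 1128 genes were higher and 955 lower, with 5 members lower. At an adjusted p under 0.01 the counts were 1160 and 835, with 5 members lower, and with a change of at least 1.5-fold they were 548 and 491, with 2 members higher and 3 lower. With each array left out in turn, 1371 to 2106 genes were higher and 1026 to 1643 lower, and 4 to 8 members were higher and 5 to 6 lower. The 1371 came without the second KO array, which gave 5 members lower; without the third KO array the counts over all genes were 1388 and 1026. With a replicate block 11 members and 3498 genes were called, so the block ended 4 member calls; the numbers do not pair the embryos, and the paired fit is given for completeness.

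Among single values, Hsp90aa1 (-0.0679 to 0.0013 with an array left out) reversed to 0.0013 without the first KO array and 0.0001 without the first WT array, Hspe1 to -0.0143 and Hspa9 to -0.0109 with centring on the 75th percentile, and Hspa9 (-0.0314 to 0.0985 with an array left out) to -0.0314 without the third WT array; none of these was called under any setting, and the cause was not tested. Centring on the housekeeping deviation made 52.6% of calls downward ones. In all, 462 single values kept their direction and side of the threshold, 58 fell short of it, 16 came past it and 5 reversed. Arrays of 3 embryos per group limit what can be called, and 16 members lay below the median of all genes on every array, 2 of them called.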

Other observations

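Single arrays held unequal shares of the extremes within the family. The first KO array was the lowest of its group in 36 of 72 members (50%), where it was lowest for 38.1% of all genes. The third WT array was the lowest of its group in 37 members (51.4%), against 40.2% of all genes. The first WT array was the lowest in 10 members (13.9%, against 34% of all genes) and the highest in 32 (44.4%, against 33.9%). The median SD between arrays was 0.07 in KO livers and 0.11 in WT livers for the members, and 0.09 in KO livers and 0.11 in WT livers for all genes. Of the 72 members, 32 overlap the span of another gene in the gene table, and signal from an overlapping gene was not tested.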
